A study of Sus scrofa domesticus with 150 samples.

Results

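FOS, FOSB, FOSL1, JUN, JUNB, ATF3, EGR1 and MYC are transcription factors of the immediate early response, and they were followed here through 21 days of healing of excisional wounds in pig skin. They were taken by symbol from the count table, which holds 30461 genes, 21687 of them with a symbol and 26905 with at least 1 count, and each of the 8 symbols matched 1 row. FOS, FOSB, JUNB, ATF3, EGR1 and MYC are named in the table itself, and the rows of FOSL1 and JUN are named by the protein that their description matches. The rows carry the identifiers ENSSSCG00025046805 (FOS), ENSSSCG00025048625 (FOSB), ENSSSCG00025077289 (FOSL1), ENSSSCG00025006487 (JUN), ENSSSCG00025065475 (JUNB), ENSSSCG00025064494 (ATF3), ENSSSCG00025058298 (EGR1) and ENSSSCG00025047123 (MYC), all protein coding. Their positions are given on contigs and not on chromosomes. The FOS gene model is 4914 bases long and that of JUNB 1044 bases, which is the whole span of the JUNB gene on its contig.

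Immediate early genes are transcribed within minutes of a growth factor, cytokine, stress or injury signal, without new protein synthesis, through factors such as the serum response factor, its ternary complex partners and CREB. Proteins of the FOS and JUN families, and ATF3, join through leucine zippers to form activator protein 1 (AP-1), which binds regulatory DNA of genes for proteases, cytokines and keratinocyte differentiation. EGR1 is a zinc finger factor of the same early response, and MYC drives ribosome production and growth. In skin, keratinocytes, fibroblasts and infiltrating immune cells all use these factors, and their RNAs are short-lived.

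RNA was sequenced from 150 samples of 6 female Yorkshire-mix pigs, which carried full-thickness circular wounds on the back under Telfa Clear and Tegaderm dressings and received no other treatment. Day 0 is represented by 6 samples of whole skin, removed to make the wounds, for which location does not apply. The other samples are 72 pairs of biopsies from the edge and the center of a wound taken daily up to day 7, then on odd days to day 15, and on days 16, 19 and 21, with 6 wounds a day up to day 13 and 3 wounds a day after that. Day and location make 29 states, and days 1, 3, 5, 7, 11, 15 and 21 come from animals 1 to 3 while days 2, 4, 6, 9, 13, 16 and 19 come from animals 4 to 6, so that neighbouring days often differ in their animals too. Animals were sampled on several days and, up to day 13, in more than 1 wound a day, so replicates of a state are separate wounds and not always separate animals.

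Total counts ranged from 13133379 to 24895572 per sample, and all 8 genes had counts in all 150 samples, from 6 counts in the lowest FOSL1 library to 18086 in the highest FOS library. Levels are given as counts per 1000000 counts of the library (CPM) and as log2(1 + CPM). Basal and suprabasal keratinocyte markers were present in all 6 day 0 samples. Day 3 replicate 4 had edge and center libraries with a correlation of 0.997 across genes, against a median of 0.955 over the 72 wounds. These libraries also differed less in their counts than any of 339 pairs of replicates (chi-square per degree of freedom 4.78, against 23.0 or more). They were kept as labelled, and 6 wounds in all (day 2 replicate 2, day 3 replicates 4 and 6, day 6 replicate 5, day 9 replicate 5 and day 11 replicate 1), whose libraries had stood apart in earlier work on these data, were left out in a repeat of every test. Without them, 24 edge and center differences of the 8 genes were called in place of 22, and 116 differences from day 0 in place of 109.

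Every difference was tested with the quasi-likelihood test of edgeR over all genes, with p-values adjusted by the Benjamini-Hochberg method and called below 0.05. The comparisons of the 28 wound states with day 0 share the same 6 day 0 samples. Those are whole excised skin and the wound samples are biopsies, so wounding and type of sample cannot be told apart in these comparisons. Over these comparisons, 109 of the 224 pairs of gene and state were called (48.7%), against 45.1% of all pairs of gene and state tested. The share was 34.5% of all pairs tested at the edge and 55.8% in the center. At the edge, 36 of 112 pairs were lower than day 0 (32.1%, background 14.6%) and 17 were higher (15.2%, background 19.9%). In the center, 26 of 112 were lower (23.2%, background 27.5%) and 30 were higher (26.8%, background 28.2%). In bulk tissue a lower level can be fewer cells of a type or less RNA per cell, and these cannot be told apart.

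**Figure D1:**
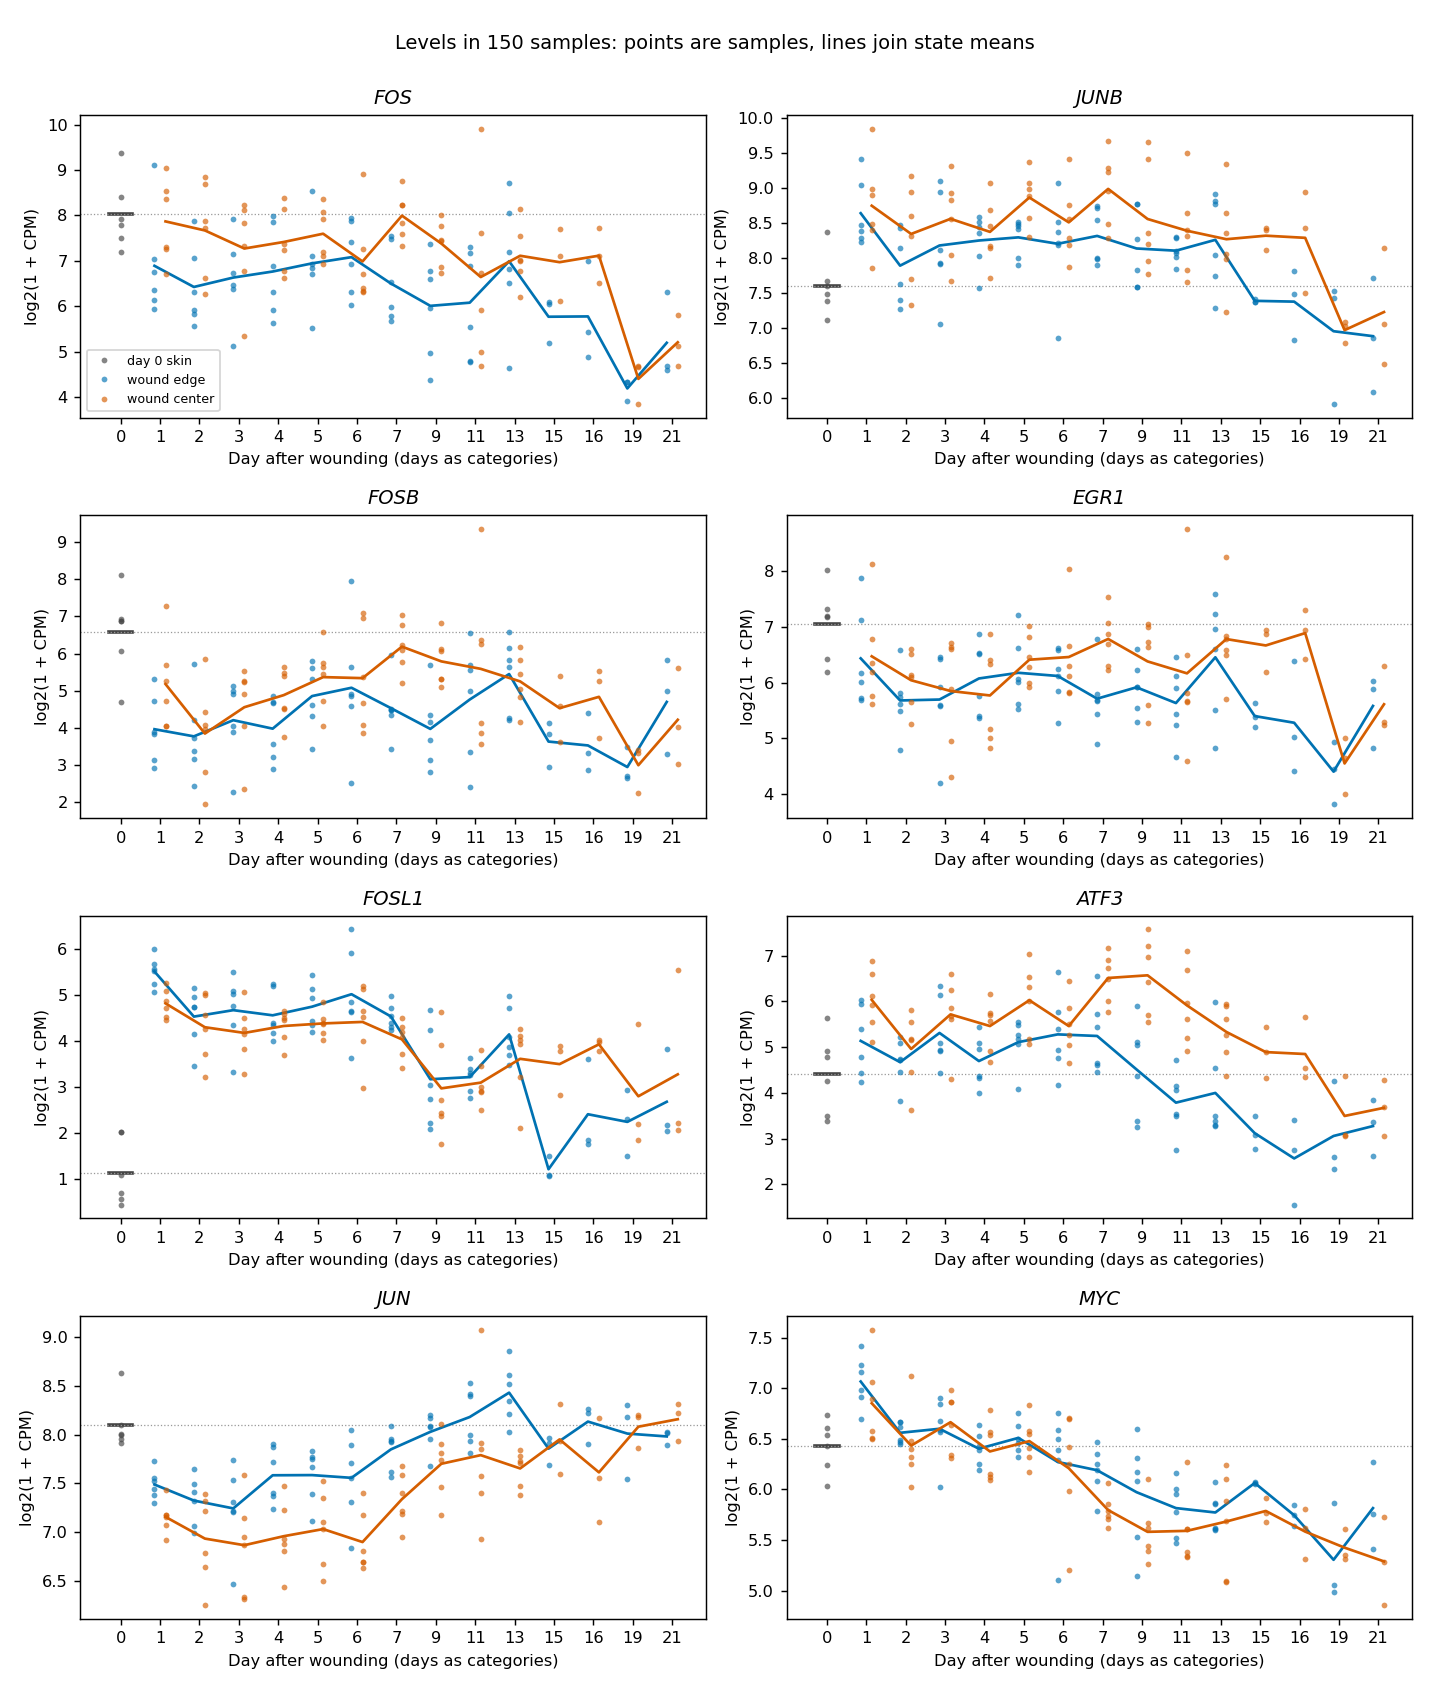
Level of each gene, as log2(1 + CPM) on the vertical axis, in all 150 samples by day after wounding (days drawn as equally spaced categories). Points are samples, lines join the means of the wound edge (blue) and wound center (orange) states, and the grey bar and dotted line are the mean of the 6 day 0 samples. FOS, FOSB and EGR1 have their highest mean at day 0, FOSL1 has its lowest there, and JUN is low from day 1 to day 6.

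FOS, the founding member of the family and the partner of JUN in the classical AP-1 dimer, was highest in the excised skin of day 0. The 6 day 0 samples held 146 to 663 CPM with a median of 232, and 8.03 ± 0.77 (SD, n = 6) as log2(1 + CPM), the first of the 29 states. The order went on with the center states of day 7 (7.996 ± 0.52, n = 6), day 1 (7.87 ± 0.91, n = 6) and day 2 (7.67 ± 1.05, n = 6), which overlapped day 0. It ended with day 21 and day 19.

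On day 19 the edge samples held 19.2, 19.1 and 14.05 CPM of FOS and the center samples 24.8, 13.5 and 24.3 CPM, and all 6 lay below the lowest day 0 sample. FOS fell against day 0 by 3.82 on the log2 scale at the edge (SE 0.85, edgeR adjusted p = 1.85e-04) and by 3.65 in the center (SE 0.84, edgeR adjusted p = 2.22e-04), which are folds of 14.1 and 12.6. On day 21 the differences were -2.64 at the edge, where the call was lost without replicate 1 or 3 (edgeR adjusted p = 0.0677 and 0.164), and -2.83 in the center. FOS was called lower than day 0 in 9 edge states (days 2, 3, 7, 9, 11, 15, 16, 19 and 21) and 2 center states (days 19 and 21), and higher in none. Blocking by animal left 6 edge states, without days 2, 9 and 16 (edgeR adjusted p = 0.0697 to 0.152). The day 15 and day 16 edge were not called when any 1 of their 3 replicates was left out (edgeR adjusted p = 0.0740 to 0.244).

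The edge and the center of a wound differed in FOS most clearly on day 7. The edge samples then held 50.2 to 185 CPM (median 77.5) and the center samples 160 to 435 CPM (median 262), and the edge was lower in all 6 wounds although the ranges met. The difference was -1.37 (SE 0.37, edgeR adjusted p = 0.0109), and 37.4% of all genes were called on that day. It was the only day called for FOS, and it was not called without replicate 6 (edgeR adjusted p = 0.0527). With the wound as a block, days 2, 9 and 15 were called as well, all lower at the edge (edgeR adjusted p = 0.0388, 2.40e-03 and 0.0353), and 3 days were called without the libraries that had stood apart. With counts summed per animal and no block, days 2 and 9 were not called (edgeR adjusted p = 0.0864 and 0.0646), and day 15 has 1 wound per animal. The mean difference over the 14 days was -0.70 (SE 0.17, edgeR adjusted p = 1.82e-04), with the edge higher in 15 of 72 wounds and lower in the mean of each of the 6 animals. Of all genes, 66.3% were called in this mean.

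FOSB, whose long form is a strong activator and whose truncated form is stable, moved with FOS but fell further in the first days. Day 0 held 24.8 to 275 CPM (median 116), and 6.59 ± 1.14 (SD, n = 6) on the log2 scale. The day 1 edge held 6.54 to 38.8 CPM (median 13.5), where 4 of 6 samples lay below the lowest of day 0, and the difference was -2.90 (SE 0.71, edgeR adjusted p = 5.13e-04). The lowest state was again the day 19 edge, with 5.28, 5.50 and 10.2 CPM, and the day 19 center held 9.02, 3.78 and 9.59 CPM. FOSB was lower than day 0 in 10 edge states (days 1 to 5, 7, 9, 15, 16 and 19) and 5 center states (days 2, 3, 4, 15 and 19), by 1.93 to 3.83 on the log2 scale where called, and higher in none. The day 15 center was not called with the animal as a block (edgeR adjusted p = 0.0517), nor when any 1 of its 3 replicates was left out. The day 15 and day 16 edge were also not called when any 1 replicate of the 3 was left out (edgeR adjusted p = 0.0503 to 0.116).

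Center exceeded edge in FOSB on days 7 and 9. On day 9 the edge held 6.01 to 50.7 CPM (median 14.3) and the center 33.1 to 112 CPM (median 52.9), with the edge lower in 6 of 6 wounds and a difference of -1.64 (SE 0.51, edgeR adjusted p = 0.0277, background 31.6%). On day 7 the difference was -1.60 (SE 0.39, edgeR adjusted p = 6.53e-03), and with the wound as a block day 15 was called too (edgeR adjusted p = 0.0404). Day 9 was called only with all wounds or without replicate 5, and not without any other replicate (edgeR adjusted p = 0.0578 to 0.0958) or with counts summed per animal (0.0807). Averaged over days the difference was -0.72 (SE 0.20, edgeR adjusted p = 1.13e-03), with the edge higher in 18 of 72 wounds and in none of the 6 animals.

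FOSL1, known as FRA1, lacks the activation domain of FOS and is induced later in the AP-1 response. Day 0, where FOS and FOSB had their highest mean, was the lowest state of FOSL1. Day 0 skin held 0.470, 3.08, 3.06, 1.12, 0.631 and 0.359 CPM (1.14 ± 0.72 as log2(1 + CPM), SD, n = 6). The day 1 edge held 32.4 to 62.2 CPM (median 45.5), the highest mean (5.50 ± 0.33, n = 6), and the day 1 center held 20.8 to 37.1 CPM (median 26.6). Every day 1 sample lay above every day 0 sample. FOSL1 rose on day 1 by 4.87 at the edge (SE 0.54, edgeR adjusted p = 1.16e-12, a fold of 29.3) and by 4.10 in the center (SE 0.53, edgeR adjusted p = 3.42e-11, a fold of 17.1).

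FOSL1 stayed above day 0 in 27 of the 28 wound states. The exception was the day 15 edge, with 1.08, 1.11 and 1.83 CPM, while the center of the same wounds held 6.07, 13.7 and 12.7 CPM. In 23 wound states, every sample lay above every day 0 sample. At the edge the called differences from day 0 ranged from 1.79 on day 19 to 4.87 on day 1, and in the center from 2.53 on day 11 to 4.10 on day 1. Late states were uneven, and the day 21 center held 45.7, 3.18 and 3.61 CPM, with 1 wound far above the others. When the animal was a block, the day 21 edge was not called (edgeR adjusted p = 0.0563). Without replicate 1 the edge states of days 16 and 21 and the day 21 center were not called, and without replicate 2 neither state of day 19 was.

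The side of the wound with more FOSL1 differed between day 1 and day 15. On day 1 the edge was higher by 0.78 (SE 0.18, edgeR adjusted p = 4.39e-03, background 46.6%), in 5 of 6 wounds. On day 15 it was lower by 3.10 on the log2 scale (SE 0.42, edgeR adjusted p = 0.0165), in 3 of 3 wounds and with ranges that did not overlap, a call that was lost without replicate 2 or 3 (edgeR adjusted p = 0.160 and 0.0743). From day 2 to day 13 the fitted difference was positive on every day (0.10 to 0.73) and none of these days was called. From day 16 to day 21 it was negative on every day (-0.97 to -1.46) with none called. Over days 19 and 21 the medians were close, 3.70 CPM at the edge and 3.58 CPM in the center, where 1 day 21 sample held 45.7 CPM. With the wound as a block, day 7 was called, where all 6 wounds were higher at the edge (edgeR adjusted p = 0.0491). The change of the difference over days was tested as an interaction of day and location. It was called in animals 1 to 3 (edgeR adjusted p = 2.05e-04, background 30.9%) and not in animals 4 to 6 (edgeR adjusted p = 0.499, background 11.2%). FOSL1 was the only one of the 8 genes with a called interaction in either set of animals, and with the wound as a block the interaction of ATF3 was called in both sets as well (edgeR adjusted p = 0.0282 and 0.0175). Without replicate 4 ATF3 was called in animals 4 to 6 (edgeR adjusted p = 0.024).

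JUN, the main partner of FOS and a factor whose gene carries AP-1 sites of its own, fell in the first week. From day 9 on it was called lower than day 0 in no state. Day 0 samples held 241 to 396 CPM (median 255), of which 5 lay between 241 and 273 CPM and replicate 3 at 396 CPM. The edge samples of days 1 to 5 and the center samples of days 1 to 7 all lay below the lowest day 0 sample. So did all center samples of day 13. The center median was 212 CPM over days 9 to 13 and 291 CPM over days 19 and 21. The lowest mean was that of the day 3 center, with 78.5 to 192 CPM (median 119), a difference of -1.28 (SE 0.22, edgeR adjusted p = 2.57e-07). JUN was called lower than day 0 on days 1 to 6 at the edge (-0.55 to -0.94) and on days 1 to 7 in the center (-0.74 to -1.28). Without day 0 replicate 3, 3 edge states and 7 center states were called lower, and the counts were the same when replicate 3 was left out of every state. When the animal was a block, the day 4 and day 6 edge were not called (edgeR adjusted p = 0.125 and 0.102).

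JUN was the gene with most days called higher at the edge. These were days 1, 4, 5, 6, 7 and 13, with differences of 0.39 to 0.89 on the log2 scale. The largest of these differences was on day 13, when the edge held 260 to 464 CPM (median 345) and the center 165 to 229 CPM (median 210) with no overlap (0.89, SE 0.16, edgeR adjusted p = 1.73e-03, background 28.4%). The day 13 edge was also the highest state of all 29 and the only one called above day 0 (0.52, SE 0.22, edgeR adjusted p = 0.0442), a call that was lost with the animal as a block and without replicate 1, 2, 4 or 6 (edgeR adjusted p = 0.0591 to 0.237). Over the 14 days the edge was higher by 0.37 (SE 0.07, edgeR adjusted p = 3.55e-07), in 60 of 72 wounds and 6 of 6 animals. With the wound as a block day 6 was not called (edgeR adjusted p = 0.103), nor with counts summed per animal (0.0865). Without replicate 1, 2 or 3, the number of days with a higher edge was 3 in place of 6, and the call of day 13 held whichever replicate was left out.

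JUNB, which competes with JUN for FOS partners and restrains JUN in many settings, was higher in the wound center than in day 0 skin through most of the series. Day 0 held 137 to 333 CPM (median 186). The highest state was the day 7 center, with 313 to 822 CPM (median 551), where 5 samples lay above the highest day 0 sample. The difference was 1.45 (SE 0.34, edgeR adjusted p = 9.42e-05, a fold of 2.72). JUNB was called higher than day 0 in 10 center states (days 1, 2, 3, 5, 6, 7, 9, 11, 13 and 16) and 2 edge states (days 1 and 13). Blocking by animal left 4 center states and no edge state called (edgeR adjusted p of the lost calls 0.0509 to 0.130). Without replicate 2 there were 6 center states, and without replicate 1 or 4 no edge state. On days 19 and 21 JUNB was at its lowest, with 59.6 to 283 CPM in 12 samples, but no state was called lower than day 0.

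The center exceeded the edge in JUNB on days 5, 7 and 15, by 0.58, 0.71 and 1.02 on the log2 scale. On day 15 the edge samples held 165, 171 and 166 CPM and the center samples 347, 277 and 339 CPM, with no overlap (edgeR adjusted p = 0.0165). Without replicate 2, 4 or 5, only 1 of the 3 days was called. The mean difference over days was -0.40 (SE 0.10, edgeR adjusted p = 2.69e-04), with the edge higher in 20 of 72 wounds and in 1 of 6 animals.

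ATF3, a stress-induced factor that pairs with JUN proteins and represses inflammatory genes, had the largest difference between center and edge in the mean over days. On day 9 the center held 45.8 to 190 CPM (median 105), the highest mean of all states, and the edge 8.56 to 58.4 CPM (median 25.8). On day 11 the center held 29.2 to 136 CPM (median 54.9) and the edge 5.71 to 25.4 CPM (median 13.3), with no overlap. The difference was -2.26 on day 11 (SE 0.43, edgeR adjusted p = 1.43e-03, a fold of 4.78, background 43.4%) and -2.02 on day 9 (SE 0.49, edgeR adjusted p = 7.36e-03). Days 5, 7, 9, 11 and 15 were called, all lower at the edge. With the wound as a block days 4, 13 and 16 were called too (edgeR adjusted p = 0.0134, 8.69e-03 and 0.0405). Without replicate 1 or 2 of each day 3 days were called, and the calls of days 9 and 11 held whichever replicate was left out.

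Averaged over days, ATF3 was lower at the edge by 1.08 on the log2 scale (SE 0.14, edgeR adjusted p = 7.82e-12), with the edge higher in 10 of 72 wounds and in none of the 6 animals. The means of the 6 animals ranged from -1.33 to -0.76. ATF3 had the largest averaged difference of the 8 genes, and the fitted difference was negative on all 14 days. By days 19 and 21 the center samples (7.27 to 19.6 CPM) and the edge samples (4.02 to 18.0 CPM) were close.

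Against day 0 skin (9.46 to 48.5 CPM, median 22.4), ATF3 was higher in 6 center states, on days 1, 3, 5, 7, 9 and 11. All of the days but day 9 come from animals 1 to 3. The differences ran from 1.20 on day 3 to 2.28 on day 9 (SE 0.46, edgeR adjusted p = 1.01e-05), and on day 7 every center sample lay above every day 0 sample. No edge state was higher, and the day 16 edge was lower, with 9.58 CPM at most (-1.90, SE 0.61, edgeR adjusted p = 0.0171). With the animal as a block, 6 center states were called as well, days 7, 9 and 11 among them, with days 4, 6 and 13 (edgeR adjusted p = 0.0315 to 0.0407) in place of days 1, 3 and 5 (0.0557 to 0.200). The day 15 edge then took the place of the day 16 edge, which was not called when any 1 of its 3 replicates was left out (edgeR adjusted p = 0.0576 to 0.110). Without replicate 4 the day 3 center was not called (edgeR adjusted p = 0.0570).

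EGR1, a zinc finger factor that reads the same serum and MAP kinase signals as FOS, followed FOS. Day 0 held 72.3 to 258 CPM (median 145), and 7.05 ± 0.66 (SD, n = 6), the highest mean. The day 19 edge held 20.9, 29.7 and 13.1 CPM and the day 19 center 31.2, 24.1 and 15.0 CPM, all below day 0 (-2.49 and -2.43, SE 0.62 in both, edgeR adjusted p = 1.01e-03 and 9.52e-04). EGR1 was called lower than day 0 in 8 edge states and 4 center states, and higher in none. With the animal as a block it was lower in 5 edge and 2 center states (edgeR adjusted p of the lost calls 0.0541 to 0.163). The lower day 15 edge was not called when any 1 of its 3 replicates was left out (edgeR adjusted p = 0.111 to 0.249). The day 16 center, from the same set of animals as day 19, held the second highest mean of EGR1 (6.89 ± 0.44, n = 3).

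The edge was lower than the center in EGR1 on day 7 (-1.04, SE 0.32, edgeR adjusted p = 0.0216) and day 15 (-1.40, SE 0.22, edgeR adjusted p = 0.0191). On day 15 the edge held 35.6, 48.3 and 40.6 CPM and the center 72.3, 115 and 121 CPM. Day 7 was not called without replicate 5 or 6, nor day 15 without replicate 2 or 3 (edgeR adjusted p = 0.0756 to 0.165). With the wound as a block day 16 was called as well (edgeR adjusted p = 0.0333). The mean over days was -0.49 (SE 0.14, edgeR adjusted p = 9.49e-04), with the edge higher in 24 of 72 wounds and in 1 of 6 animals.

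MYC, the growth regulator, was highest at the day 1 edge and lower than day 0 in the late wound center. The day 1 edge held 103 to 170 CPM (median 134), the day 0 skin 64.4 to 105 CPM (median 88.7), and the day 21 center 51.8, 27.97 and 38.0 CPM. MYC was higher than day 0 in 1 state, the day 1 edge (0.54, SE 0.19, edgeR adjusted p = 0.0166), which was not called with the animal as a block or without replicate 3, 4 or 5 (edgeR adjusted p = 0.0551 to 0.0896). It was lower in all 8 center states from day 7 on (-0.57 to -0.96) and at the edge on days 13 and 19, with 4 center states called without replicate 2. The day 15 center was not called when any 1 of its 3 replicates was left out (edgeR adjusted p = 0.0898 to 0.198). That call was also lost without day 0 replicate 3 (edgeR adjusted p = 0.0568). The day 13 edge was not called without replicate 2, 3 or 6, nor the day 19 edge without replicate 1 or 3 (edgeR adjusted p = 0.0700 to 0.112). Blocked by animal, the day 11 edge was called (edgeR adjusted p = 0.0366) and the day 13 edge was not (0.134). The edge was above the center by 0.40 on day 7 (SE 0.13, edgeR adjusted p = 0.0328), and by 0.19 on average over days (SE 0.06, edgeR adjusted p = 2.39e-03), in 47 of 72 wounds and in 6 of 6 animals. With the wound as a block day 9 was called (edgeR adjusted p = 0.0338) and day 7 was not (0.0561), and day 7 was not called without replicate 1, 3 or 4 either (edgeR adjusted p = 0.0986 to 0.123). With counts summed per animal and no block neither day was called (edgeR adjusted p = 0.0614 on day 7 and 0.424 on day 9). Without replicate 2 the averaged difference was 0.10 and was not called (edgeR adjusted p = 0.172).

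**Figure D2:**
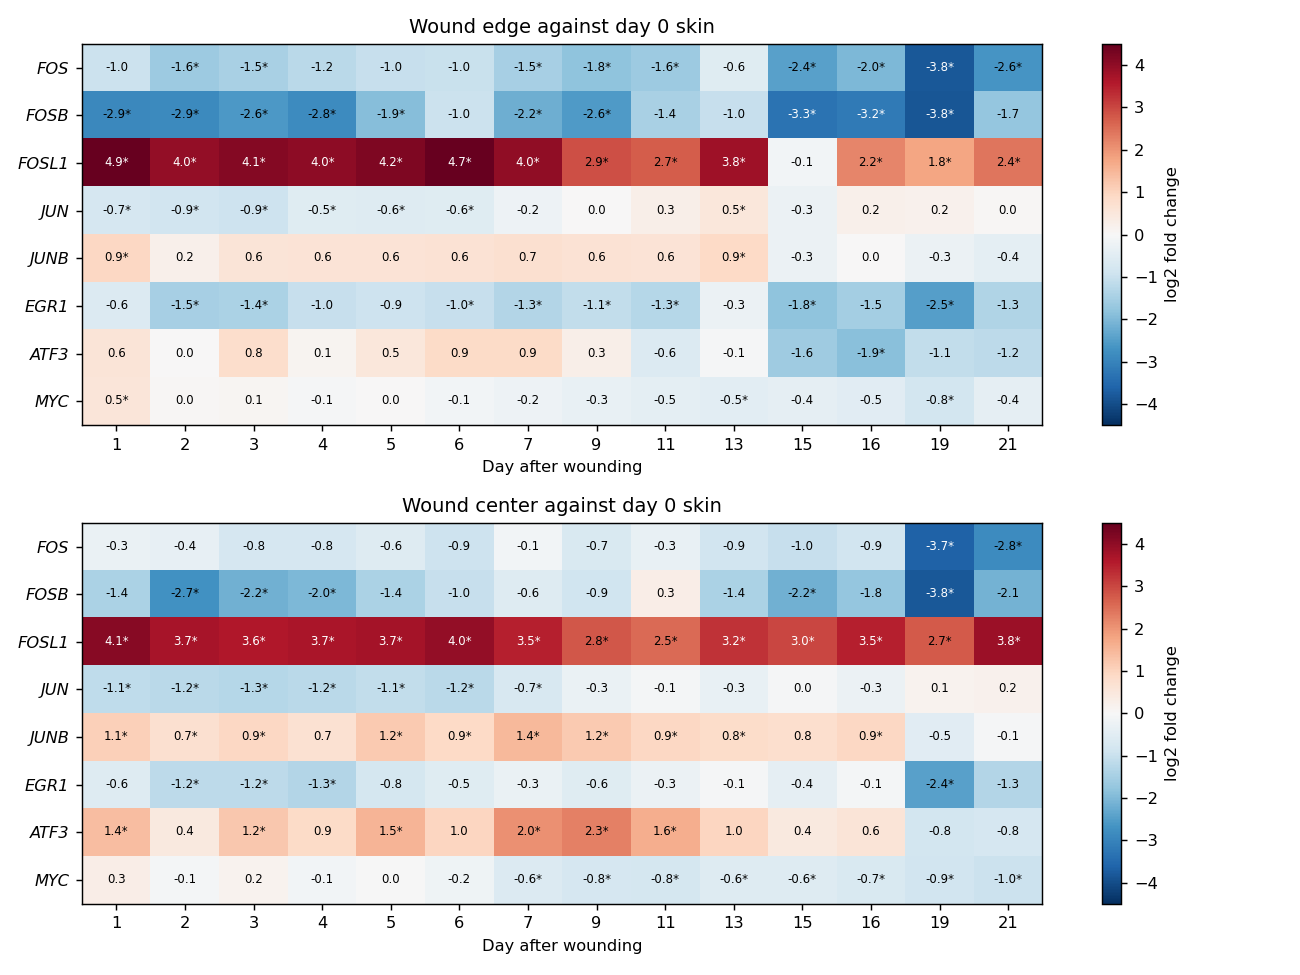
Fitted log2 fold change of each gene (rows) in the wound edge (upper panel) and wound center (lower panel) of each day (columns) against the 6 day 0 samples, with the color scale in log2 units. An asterisk marks an edgeR adjusted p below 0.05: FOSL1 carries one in 27 of 28 states, and FOS, FOSB and EGR1 carry asterisks only on negative values.

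The lower FOS, FOSB and EGR1 of wound samples rest in part on the day 0 samples, which also differ from them in type, as excised skin against biopsies. Replicate 3 of day 0 held the highest FOS, FOSB, JUN, JUNB, EGR1 and ATF3 of the 6 day 0 samples, with 663 CPM of FOS and 275 CPM of FOSB. Without it, FOS was lower than day 0 in 2 edge states in place of 9, FOSB in 9 in place of 10 and EGR1 in 4 in place of 8. The fitted differences of the states called with all samples stayed negative in every one, with a median of -1.41 in place of -1.80 for FOS, -2.44 in place of -2.86 for FOSB and -1.15 in place of -1.39 for EGR1. When replicate 3 was left out of every state, these counts were 1, 6 and 2. Leaving out replicate 2 or 5 of every state gave 5 and 4 edge states for FOS and 4 and 5 for EGR1, and leaving out replicate 1 gave 5 for EGR1. For FOSB the center states went from 5 to 9 without replicate 6 of every state, and also without the libraries that had stood apart. In the center, EGR1 was lower in 2 states in place of 4 without day 0 replicate 3. Without that sample ATF3 was higher than day 0 in 9 center states in place of 6 and in 3 edge states in place of none, and its lower level in the day 16 edge was not called (edgeR adjusted p = 0.0556).

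Over the 14 days, 22 of 112 differences between edge and center were called (19.6%), against 23.5% over all genes. Without replicate 2 of each day 14 were called. Averaged over the days, 7 of the 8 genes were called, all but FOSL1 (-0.17, SE 0.14, edgeR adjusted p = 0.297), against 66.3%. For FOSL1 the edge was higher in 45 of 72 wounds and in 3 of 6 animals. Its mean difference over wounds in log2(1 + CPM) was 0.12, of the opposite sign, and the fit weighs each day alike whatever its number of wounds. Among the differences of single days, the center was higher in 14 (12.5%, background 11.0%) and the edge was higher in 8 (7.14%, background 12.5%). In fits that pair edge and center, with the wound as a block, 30 were called, the center higher in 22 (background 12.6%) and the edge in 8 (background 13.6%). When the wounds of an animal were summed, the center was higher in 15 and the edge in 7. In that setting 16945 calls over all genes were lower and 22489 higher at the edge, so that 57.0% were higher. On day 7, 7 of the 8 genes were called, all but FOSL1, against 37.4% of all genes. Without replicate 6 only 3 were called on day 7, without replicate 4 or 5 there were 4, and with all 150 samples in 1 fit only ATF3. Day 15 had 4 called (17.4% of all genes), which fell to 0 without replicate 2 or 3, and day 5 had 3 (37.1%), which fell to 0 without replicate 2 and to 1 without replicate 1 or 4. Days 1 and 9 had 2 each (46.6% and 31.6%). Single genes were called on days 4 (27.8%), 6 (14.2%), 11 (43.4%) and 13 (28.4%), and none on days 2, 16, 19 and 21, when 35.5%, 10.1%, 0% and 0.0684% of all genes were called. On day 3 none was called, nor was any of the 14581 genes tested with edgeR, where 1667 had an unadjusted p under 0.05 and DESeq2 called 1. Without day 3 replicates 4 and 6, 1577 genes were called on that day.

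**Figure D3:**
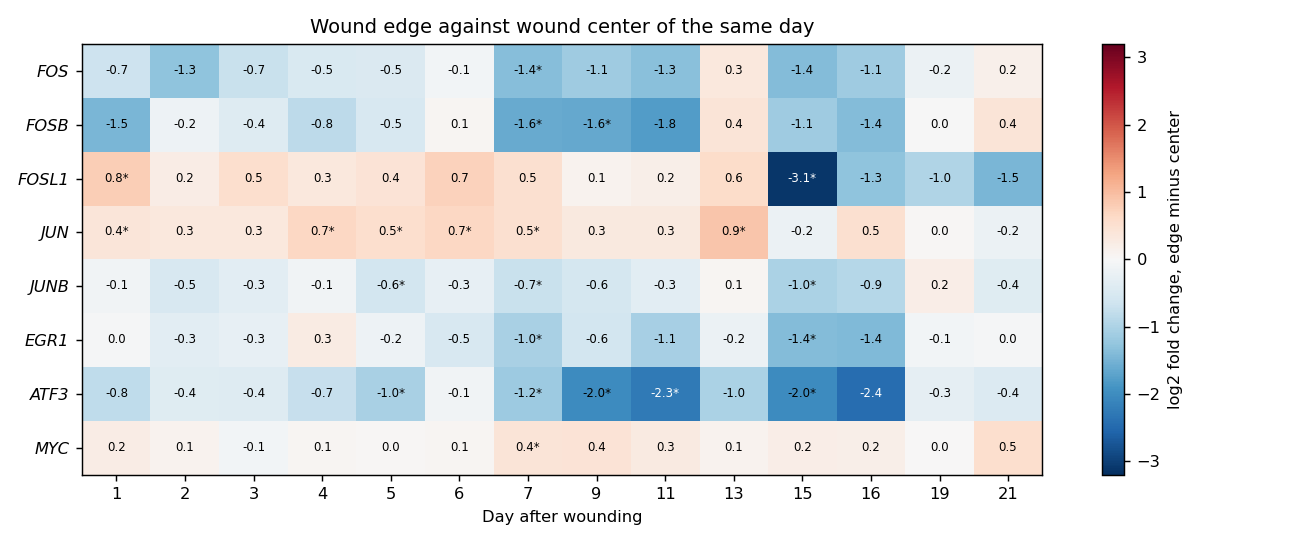
Fitted log2 fold change of the wound edge against the wound center of the same day for each gene (rows) and day (columns), with the color scale in log2 units and an asterisk for an edgeR adjusted p below 0.05. ATF3 is negative on all 14 days, JUN positive on 12, and FOSL1 passes from positive values up to day 13 to negative values from day 15.

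Differences among days were tested within each location and set of animals, so that no test mixes the sets. They were called for 22 of the 32 pairs of gene and test, against 54.8% over all genes and tests, and backgrounds of 71.0% (center) and 62.3% (edge) in animals 1 to 3, and 48.8% (center) and 36.9% (edge) in animals 4 to 6. Without replicate 2 of each day 14 were called. JUN, ATF3 and MYC differed among days in all 4 tests, and JUN did so whichever replicate was left out. The edgeR adjusted p of JUN was between 5.61e-06 and 4.78e-05 in the 4 tests. FOS and EGR1 differed among days in both locations of animals 4 to 6, whose last day is day 19, and in neither location of animals 1 to 3. FOS was called in neither location of animals 4 to 6 without replicate 2, and EGR1 at the edge only. FOSL1 differed at the edge in both sets (edgeR adjusted p = 1.64e-08 and 2.24e-03) and not in the center (0.0514 and 0.288). With the animal as a block its center was called in animals 4 to 6 (edgeR adjusted p = 0.0391), and FOSB was lost in the center of animals 1 to 3 (edgeR adjusted p = 0.0886). JUNB differed only at the edge of animals 1 to 3 (edgeR adjusted p = 0.0103).

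Levels of different genes can be compared only per length, on the FPKM values that the authors deposited. Such shares depend on the length of each gene model, which is 4914 bases for FOS. How well the models match the transcripts in these samples was not tested, so the order of genes within a family may change with them. On that scale FOSL2, a relative of FOSL1 that was not among the 8 genes, held the largest share of the FOS family in all 29 states. At day 0 the mean shares of the family's FPKM were 33.7% ± 10.3 for FOS, 11.6% ± 5.28 for FOSB, 0.479% ± 0.397 for FOSL1 and 54.3% ± 14.7 for FOSL2 (SD, n = 6). At the day 1 edge FOSL1 reached 18.4% ± 7.62 and matched FOS at 17.8% ± 11.8, while FOSB was at 1.78% ± 0.722 (n = 6). At the day 19 edge FOS had 2.77% ± 0.268 and FOSL2 94.4% ± 0.782 (n = 3). The mean FPKM of FOSL2 itself was 88.4 at day 0 and 145 at the day 19 edge.

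JUNB held the largest share of the JUN family in 25 of the 29 states, and JUN in the other 4, which are the edge and center of days 19 and 21. This order depends on the gene models as well, which are 1044 bases for JUNB and 1932 bases for JUN. JUN, JUNB and JUND had 30.2% ± 1.85, 39.8% ± 4.00 and 30.1% ± 2.87 at day 0 (SD, n = 6). In the day 5 center JUN was at 10.6% ± 1.72 and JUNB at 69.9% ± 4.10 (n = 6). On day 19 JUN had 41.0% ± 2.95 at the edge and 41.2% ± 1.82 in the center, and JUNB 37.2% ± 9.54 and 35.3% ± 2.13 (n = 3). On day 21 JUN and JUNB had 40.8% ± 9.54 and 35.4% ± 10.1 at the edge, and 39.4% ± 8.94 and 38.8% ± 11.7 in the center (n = 3), where the mean FPKM of JUNB (184) was above that of JUN (166). The shares of JUN and JUNB at the day 19 edge and in both states of day 21 did not differ beyond their spread.

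**Figure D4:**
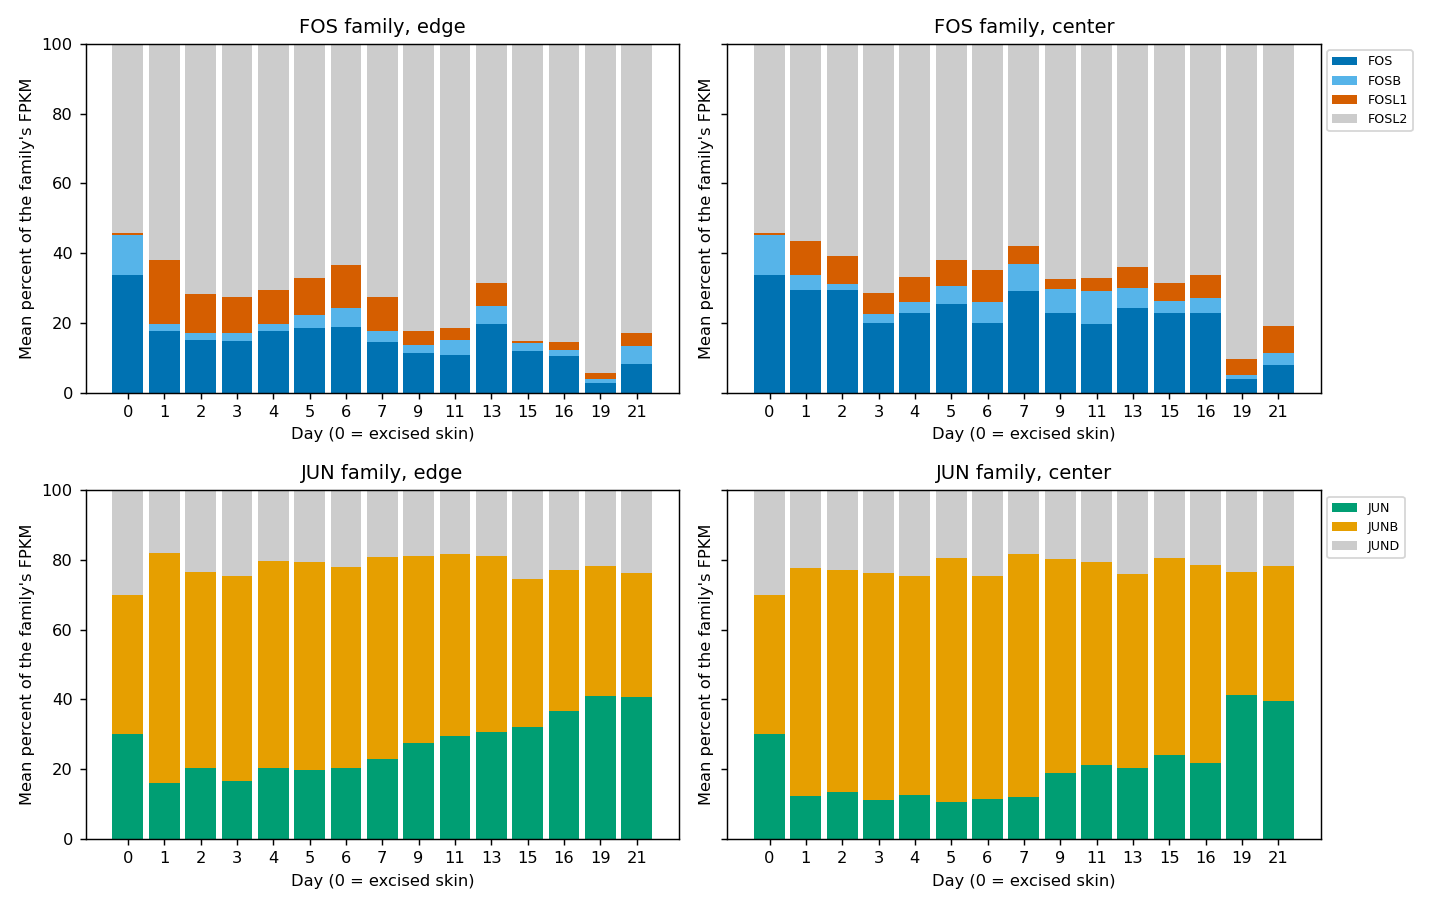
Mean share of each gene in the summed FPKM of the FOS family (upper panels) and the JUN family (lower panels), in percent on the vertical axis, by day for the wound edge (left) and wound center (right), with day 0 skin repeated in both. FOSL1 goes from 0.479% at day 0 to 18.4% at the day 1 edge, and JUN falls to 10.6% in the day 5 center and is at 41.0% at the day 19 edge.

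Replicates of a state varied more in these genes than in most others. The pooled SD within states was 1.14 for FOSB, 0.97 for FOS, 0.75 for EGR1, 0.75 for ATF3, 0.71 for FOSL1, 0.57 for JUNB, 0.34 for JUN and 0.34 for MYC, on the log2(1 + CPM) scale. The median over the 17916 genes tested was 0.30 and the 90% quantile 0.64. Genes within 0.5 of the mean level of FOS had a median SD of 0.24. With 29 states in order of their mean, neighbouring states differed by less than the larger of their SDs in all 28 steps for each gene except FOSL1. For FOSL1 this held in 27 steps, and the exception was the step of 1.03 between the day 15 edge and the day 19 edge.

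Samples that were high in FOS for their state were also high in EGR1 and FOSB. Over the 150 samples, deviations from the state means had a Pearson's r of 0.80 for FOS and EGR1, 0.79 for FOS and FOSB, 0.66 for JUNB and ATF3, 0.61 for FOSB and EGR1 and 0.59 for FOSL1 and JUNB. Deviations of MYC had an r of 0.08 to 0.49 with the other members. These samples share wounds, animals and library depth, and the coefficients are a description. Edge and center of the same wound also deviated together, with r over 72 wounds between 0.24 for JUN and 0.56 for FOSL1, where the median over all genes was 0.24.

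Across the means of the 29 states JUN was the only gene with a negative r to all the others. Its r with the other 7 genes lay between -0.66 (ATF3) and -0.14 (FOSB), while within states its deviations had a positive r with every one of them, from 0.08 with MYC to 0.47 with EGR1. JUNB and ATF3 had the highest r of state means (0.88), followed by FOS and EGR1 (0.85) and FOS and JUNB (0.84). FOSB and FOSL1 had an r of 0.07. On the log2(1 + FPKM) scale the r of JUN was near 0 with FOSB (-0.01) and EGR1 (-0.09). FOSB then had an r of -0.07 with MYC and -0.04 with FOSL1.

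**Figure D5:**
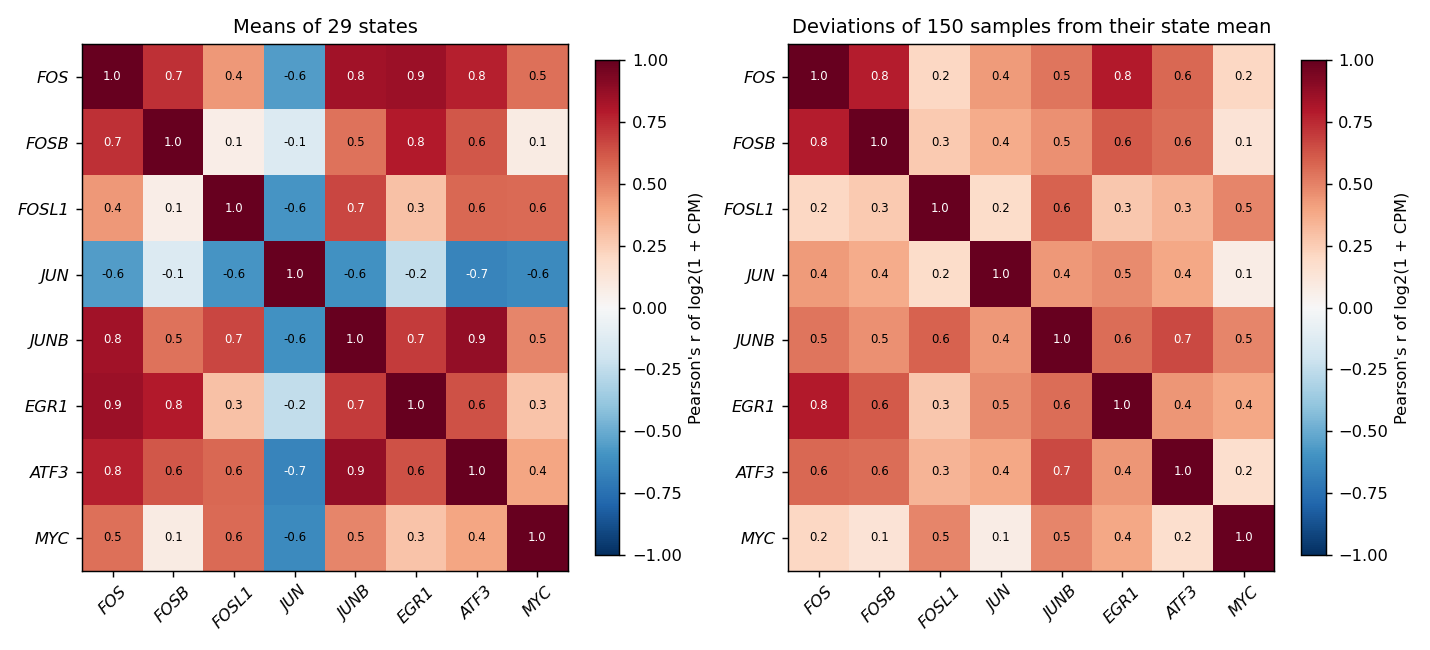
Pearson's r between pairs of the 8 genes on the log2(1 + CPM) scale, over the means of the 29 states (left) and over the deviations of the 150 samples from their state mean (right), with color from -1 to 1. JUN has negative values with all other genes on the left and positive values on the right, and FOS with EGR1 (0.80) and FOS with FOSB (0.79) are the highest on the right.

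The day 11 center replicate 6 held the highest level of 4 genes among all 150 samples. It had 963 CPM of FOS, 654 CPM of FOSB, 538 CPM of JUN and 429 CPM of EGR1, and was also high in JUNB (725 CPM, rank 4) and in ATF3 (136 CPM, rank 4). The other 5 samples of that state held 24.9 to 196 CPM of FOS and 10.9 to 81.1 CPM of FOSB. It ranked 115 in FOSL1 (7.03 CPM) and 137 in MYC (39.6 CPM). The highest FOSL1 of all samples was in day 6 edge replicate 2, at 84.5 CPM, which also held 248 CPM of FOSB (rank 3).

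The 3 genes whose state means were most like each member were listed by Pearson's r over the 29 states, with no p. For FOS they were JUND (0.92), a row named MKP1 whose description matches the phosphatase DUSP1 (0.91) and DUSP6 (0.84), both of the latter phosphatases of MAP kinases. The same MKP1 row and JUND were among the first 3 for FOSB and for EGR1. Within states, deviations of the MKP1 row had an r of 0.86 with those of FOS, JUND 0.39 and DUSP6 0.42. On the log2(1 + FPKM) scale the r of the state means of FOS and JUND was 0.77. ATF3 was most like TNIP1 (0.95), NFKBID (0.95) and TNFAIP3 (0.95), regulators of NF-kappa B signalling. JUNB was most like FAM50A (0.92), CEBPD (0.92) and IER5 (0.92), and FOSL1 like S100A11 (0.92), HSPA8 (0.91) and NPM3 (0.91). For JUN they were FOXL1 (0.92), LRRC29 (0.91) and PADI1 (0.91), whose deviations within states had an r with JUN of 0.34, -0.06 and 0.22. MYC had 305 genes with an r above 0.9, led by WDR3 (0.97), PA2G4 (0.96) and CSTF2 (0.96), which work in ribosome production, growth and RNA processing, and FOSB and EGR1 had none.

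Of 33 other immediate early genes found in the table, 20 were lower at the edge than in the center on average over days and 4 were higher, with a median of -0.34 where the median of all genes was -0.01. Of all genes, 33.8% were lower and 32.5% higher. KLF4, a factor of keratinocyte differentiation, was higher at the edge by 2.24 (SE 0.12) and EGR3 by 1.40 (SE 0.12). Both were lower than day 0 in 23 of the 28 states, and GADD45A and SGK1 were higher in 26 and 25 states. Among the 16 other AP-1 partners, 11 were lower at the edge and 1 was higher (median -0.16). BATF, an AP-1 factor of immune cells, was lower at the edge by 0.94 on the log2 scale (SE 0.12) and higher than day 0 in all 28 states. JUND was lower than day 0 in 15 states and FOSL2 higher in 5.

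Textbook AP-1 targets were mostly higher in wounds than in day 0 skin. In the day 1 edge 10 of 15 were higher and none was lower (median 2.40), and in the day 7 center 12 were higher and 2 lower (median 3.45), against medians of all genes of -0.07 and -0.03 and backgrounds of 21.7% and 31.0% higher. On average over days 10 of the 15 were lower at the edge and 3 were higher (median -0.84). CXCL8, the neutrophil chemokine, was lower at the edge by 2.22 on the log2 scale (SE 0.31), and IVL, a cornified envelope protein, was higher by 3.90 (SE 0.37). Of 12 textbook MYC targets, 9 were higher than day 0 at the day 1 edge and none was lower (median 0.80), and 2 were higher and 5 lower at the edge than in the center (median -0.08).

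Among 12 MAP kinase phosphatases and feedback inhibitors, 6 were lower at the edge and 2 higher (median -0.14). Over all genes 33.8% were lower and 32.5% higher, and several of the counts here and in the next lists lie near those shares. DUSP14 was higher by 2.87 (SE 0.16) and DUSP2 lower by 1.56 on the log2 scale (SE 0.20). Of 19 upstream kinases and serum response factors, 5 were higher and 7 lower at the edge (median -0.05). The MYC network had 3 higher and 4 lower of 11, with MXI1, which opposes MYC, higher by 1.71 (SE 0.10). Of the 7 stress response partners of ATF3, 3 were higher and 2 lower, with CHAC1 higher at the edge by 2.19 (SE 0.26).

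Cell type markers moved with location and time beside these genes. All 5 basal keratinocyte markers found of 6 listed were higher at the edge on average (median 4.21). Their summed level was 172 to 42153 CPM at the edge, 87.0 to 28065 CPM in the center and 12314 to 20707 CPM in day 0 skin, with TP63 at 0 in 6 center samples and no marker at 0 throughout a group. The 4 suprabasal markers found of 6 were higher by a median of 5.74. Of the 7 neutrophil and monocyte markers, 5 were lower at the edge and 2 were higher (median -0.87). They summed to 101 to 182 CPM in day 0 skin, 167 to 9467 CPM at the edge and 221 to 6865 CPM in the center, with no marker at 0 in any sample. All 6 macrophage, 5 T cell, 5 endothelial and 7 fibroblast markers were lower at the edge.

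Against day 0 the markers moved as well. Of all pairs of gene and state tested, 28.2% were higher and 27.5% lower in the center, and 19.9% and 14.6% at the edge. In the day 1 center all 5 basal and all 4 suprabasal keratinocyte markers were lower, all 5 hair follicle markers found of 6 were lower, and 7 of 8 skeletal muscle and all 4 adipocyte markers were higher (adipocyte median 3.94). At the day 1 edge none of the keratinocyte, muscle or adipocyte markers was called, and 4 of 5 hair follicle markers were lower. All 7 neutrophil and monocyte markers were higher in both day 1 states (medians 2.79 at the edge and 4.17 in the center). Of the 7 fibroblast markers, 5 were lower in each day 1 state, and 2 were higher in the day 1 center. In the day 7 center all 5 basal, 4 suprabasal and 5 hair follicle markers were lower, and all 7 neutrophil and monocyte, 6 macrophage, 5 T cell and 5 endothelial markers were higher. In the day 21 center no keratinocyte marker was called, 6 of 7 fibroblast markers were higher and the 5 hair follicle markers were lower. All 6 macrophage, 5 T cell and 5 endothelial markers and 6 of 7 neutrophil and monocyte markers were still higher there.

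Over the 150 samples, deviations of JUNB had an r of 0.58 with those of the mean neutrophil and monocyte marker level, those of ATF3 0.55 and those of FOSL1 0.41. Deviations of JUN had an r of 0.45 with the basal keratinocyte markers. The other genes had values from -0.02 for ATF3 to 0.16 for FOSL1 and EGR1. Over the 29 state means, MYC had an r of -0.87 with the fibroblast markers and FOSL1 of 0.78 with the neutrophil and monocyte markers. For deviations within states the r of MYC with the fibroblast markers was -0.07. The part of these cell types in the levels of the 8 genes was not tested.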

How the data were processed

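RNA of 150 samples was sequenced as poly-A selected, paired-end libraries. The sequencing provider filtered the reads, aligned them and counted them per gene, and the aligner, counter and genome build are not given in the sources used here. The authors deposited the counts without normalization, in 1 table for all samples, and FPKM values, which divide the count by gene length and library total. Both tables were used, the counts for every test and for CPM, and the deposited FPKM only for shares of a gene family and as an alternative scale.

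Groups were the day and location of the labels, and replicates were numbered by animal and wound. Counts were tested with edgeR 4.0.16 in R 4.3.3 (TMM scaling, estimated dispersions, quasi-likelihood test), after edgeR's filter on low counts (at least 10 counts in enough samples, 15 in total), with Benjamini-Hochberg adjustment over all genes and a threshold of 0.05. Edge and center were compared within each day, all states with day 0 in 1 fit of 150 samples, and days among themselves as F tests within a location and set of animals, with an interaction of day and location. CPM scale the count by the library's total without TMM, with a pseudocount of 1 on the log2 scale. Total counts of 13133379 to 24895572 set the counting precision, and p-values measure the spread between wounds, which partly share animals.

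The 8 genes, the lists of related genes and markers, and the libraries left out as apart were chosen with earlier results of these data known. Named list members are those with the largest averaged difference of edge and center, and, for other immediate early genes and AP-1 partners, those called in most states. FOSL2, the libraries with extreme levels and day 0 replicate 3 were singled out after their values were seen. Of the listed symbols, DUSP1 was found only under the name MKP1 and is not in the list counts.

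Edge and center samples of a wound share the animal and the wound in the labels, and day 0 and later samples share animals, so the numbers pair the samples. Across genes, deviations of edge and center of the same wound from their state means had a mean r of 0.259, positive in 64 of 72 wounds. Fits with the wound or the animal as a block are given beside the results they change. Other alternatives were DESeq2 1.42.0, library-size scaling, no filter, counts summed per animal, other sets of samples in a fit, and leaving out each replicate. On simulated counts for the day 1 comparison of edge and center (14432 genes), 56% of 2-fold and 100% of 4-fold changes were recovered, and on day 15, with 3 wounds (14644 genes), 11% and 89%.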

Additional observations from a re-analysis of the deposited data

Results flagged for a closer look

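In 7 of the 168 groups of 6 samples (8 genes in 21 states), the highest or lowest sample lay far from the others by Dixon's ratio of the gap to the range. Chance alone gives about 1 in 20 groups, or 8.4 of 168, so the number is no larger than chance gives. FOS was high in day 1 edge replicate 4 (549 CPM, the other 5 samples at 60.6 to 131 CPM) and in day 6 center replicate 4 (477 CPM, the others at 78.1 to 152 CPM). The day 6 sample was also high in EGR1 (260 CPM, the others at 55.5 to 99.1 CPM). JUN was high in day 0 replicate 3 (396 CPM, the others at 241 to 273 CPM). ATF3 was low in day 5 edge replicate 5 (16.0 CPM, the others at 32.8 to 46.0 CPM), and MYC was low in day 6 edge replicate 5 (33.4 CPM, the others at 77.3 to 107 CPM), 1 of the libraries left out as apart. MYC was high in day 11 center replicate 3 (76.3 CPM, the others at 39.2 to 47.8 CPM).

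The difference between edge and center in FOSL1 changed over the days of animals 1 to 3 (interaction of day and location, edgeR adjusted p = 2.05e-04), from a higher edge on day 1 to a higher center on day 15.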

How the results depend on the processing

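The count of edge and center differences called among the 8 genes was 22 in the fits within days and 11 when all 150 samples entered 1 fit, which was also the lowest value over the alternatives, and the cause was not tested. It was 31 with DESeq2, 14 to 19 when replicates were left out in turn and 24 without the libraries that had stood apart, and these gave 24 differences among days. The count against day 0 was 109, and 85 to 111 when replicates were left out, 87 with the animal as a block and 126 with each state fitted with day 0 alone. Averaged over days, 6 to 7 of the 8 genes were called when replicates were left out. Differences among days were called 22 times, and 14 to 23 times when replicates were left out. The interaction of day and location was called once, once or 2 times when replicates were left out, and 3 times with the wound as a block. Apart from the changes given beside the results, the block changed no call. With DESeq2, 4 days in place of 1 were called for FOS and 4 in place of 2 for FOSB, and the higher JUN of the day 13 edge was lost with DESeq2, without the low-count filter and with library-size scaling. No called difference of single states, days or the mean over days changed sign under any alternative. Scaling by library size alone moved the median of all genes by -0.26 to 0.17 on the log2 scale in the comparisons with day 0, by over 0.1 in 14 of 28. The r of FOS with EGR1, FOS with FOSB and JUNB with ATF3 held within the 95% interval of each r on the other scales, by rank and without the libraries that had stood apart. Depth limited FOSL1 at day 0 most, with as few as 6 counts, and days 15 to 21 have only 3 wounds. At 3 wounds, 11% of 2-fold changes were recovered in a simulation with the same dispersion for all genes, which does not match the spread of these 8. DESeq2 was not run for differences among days or the interaction.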
